A study of Mus musculus with 11 samples.

Results

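The 10 genes followed here are known from other tissues as targets of the transcriptional coactivator YAP, and they were measured in mouse liver: Ankrd1, Axl, Crim1, F3, Nt5e, Tgfb2, Asap1, Fjx1, Arhgef17 and Ccdc80. They were taken by symbol from the deposited expression table, which holds 20893 genes, and all 10 were found. The 10 belong to a published list of 22 targets, whose other 12 genes are described more briefly. Testing was limited to the 14244 genes that reached 0.5 eRPKM in 3 or more livers, and 9 of the 10 were among them. The unit eRPKM counts a gene's exon reads relative to exon length and to the reads of the library.

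YAP and its paralog TAZ (Wwtr1) are held in the cytoplasm by the Hippo kinase cascade and act in the nucleus once that cascade is off. They have no DNA-binding domain of their own and reach their targets through TEAD transcription factors, often at enhancers shared with AP-1. Their best known targets, Cyr61 and Ctgf, encode secreted matrix proteins. Most of the 10 genes described here encode ligands, receptors, surface enzymes or regulators of the cytoskeleton.

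RNA was measured by bulk RNA-seq in 11 whole livers of C57BL/6 mice, with 1 mouse per library. The 4 control livers came from mice labelled ROSA26-rtTA-IRES-EGFP-WT that received doxycycline in the food for 7 days. The other livers came from ROSA26-rtTA-IRES-EGFP-tetYAP mice, 4 after 3 days of doxycycline and 3 after 7 days. By the study's methods the doxycycline-responsive transactivator was switched on by an Alb-CRE transgene, which is driven by a hepatocyte promoter, and the induced YAP was a constitutively active mutant. Whether the controls carried Alb-CRE is not given in the sources used here. The doxycycline was therefore shared by all groups, but the controls were matched in its duration to the 7-day livers only. Ages are not given in the labels. The labels of 3-day livers 1 and 4 and of 7-day liver 2 end in MF, whose meaning is not stated. By the levels of Xist and Ddx3y, control livers 2 and 3, 3-day livers 3 and 4 and all 7-day livers were female, and control livers 1 and 4 and 3-day livers 1 and 2 were male.

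The libraries held between 1251404 and 5942401 reads on genes. All 8 hepatocyte markers looked at had reads in every group, and Alb ranged from 234 to 918 eRPKM. Reads on 1438 olfactory and vomeronasal receptor genes, which liver should not express, were used as a measure of background. Between 28.7% and 61.9% of these genes had reads in control livers 1 and 2 and 7-day liver 2, 12.4% in 3-day liver 1, and 2.99% to 5.22% in the other 7 livers. The endogenous Yap1 gene, whose row need not count reads of the transgene, stood at 13.9 to 21.1 eRPKM in controls, with 3-day livers at 15.3 to 19.3 and 7-day livers at 17.4 to 19.0. Yap1 was not called in any comparison.

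Calls required a log2 fold change beyond 0.5 in either direction together with a limma p, adjusted by Benjamini-Hochberg, below 0.01. After 7 days of YAP, 5 of the 10 genes were called higher than in controls: Ankrd1, Crim1, Axl, Tgfb2 and Asap1. In the same comparison 18.0% of all genes tested were called higher and 5.77% lower. Livers at 7 days and controls did not overlap for the same 5 members, all with 7 days higher, and for 36.7% (higher) and 13.3% (lower) of all genes tested. These shares depend on the scaling, the depth and the livers. As reported, 2561 genes were called higher and 822 lower. After quantile normalization these were 1857 and 1821, and with median-ratio size factors 1951 and 1254. With log2 depth as a covariate they were 1099 and 577, the 7-day libraries being among the deepest. Without 7-day liver 3 they were 1588 and 469. Tgfb2 passed the filter only through its 7-day livers. Its calls and its separation at 7 days, against controls or 3-day livers, are therefore not counted as support. F3, Nt5e, Arhgef17 and Ccdc80 were tested and not called in any comparison, and Fjx1 had too few reads to be tested. After 3 days none of the 10 was called, against 0.0421% of all genes tested called higher and 0.0% called lower. That share is 6 genes, and it became 53 higher and 1 lower without 3-day liver 1, and 0 called without any of several single livers, such as 3-day liver 2. At an unadjusted p under 0.05 there were 2 members at 3 days, Crim1 and Ankrd1, and limma-voom on recovered reads called 0. Ankrd1, Axl, Crim1, Tgfb2 and Asap1 were also the members called higher at 7 days against 3 days, where 14.0% of all genes tested were called higher and 5.31% lower, 1997 and 756 genes. After quantile normalization these were 1436 and 1430, with log2 depth as a covariate 1091 and 588, and without 7-day liver 3 they were 1048 and 364. The same 5 had all 7-day livers above all 3-day livers, as did 31.3% of all genes tested. The comparisons share livers, so they are not independent of each other. In whole liver, fewer cells of a type and less RNA per cell cannot be told apart.

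**Figure D1:**
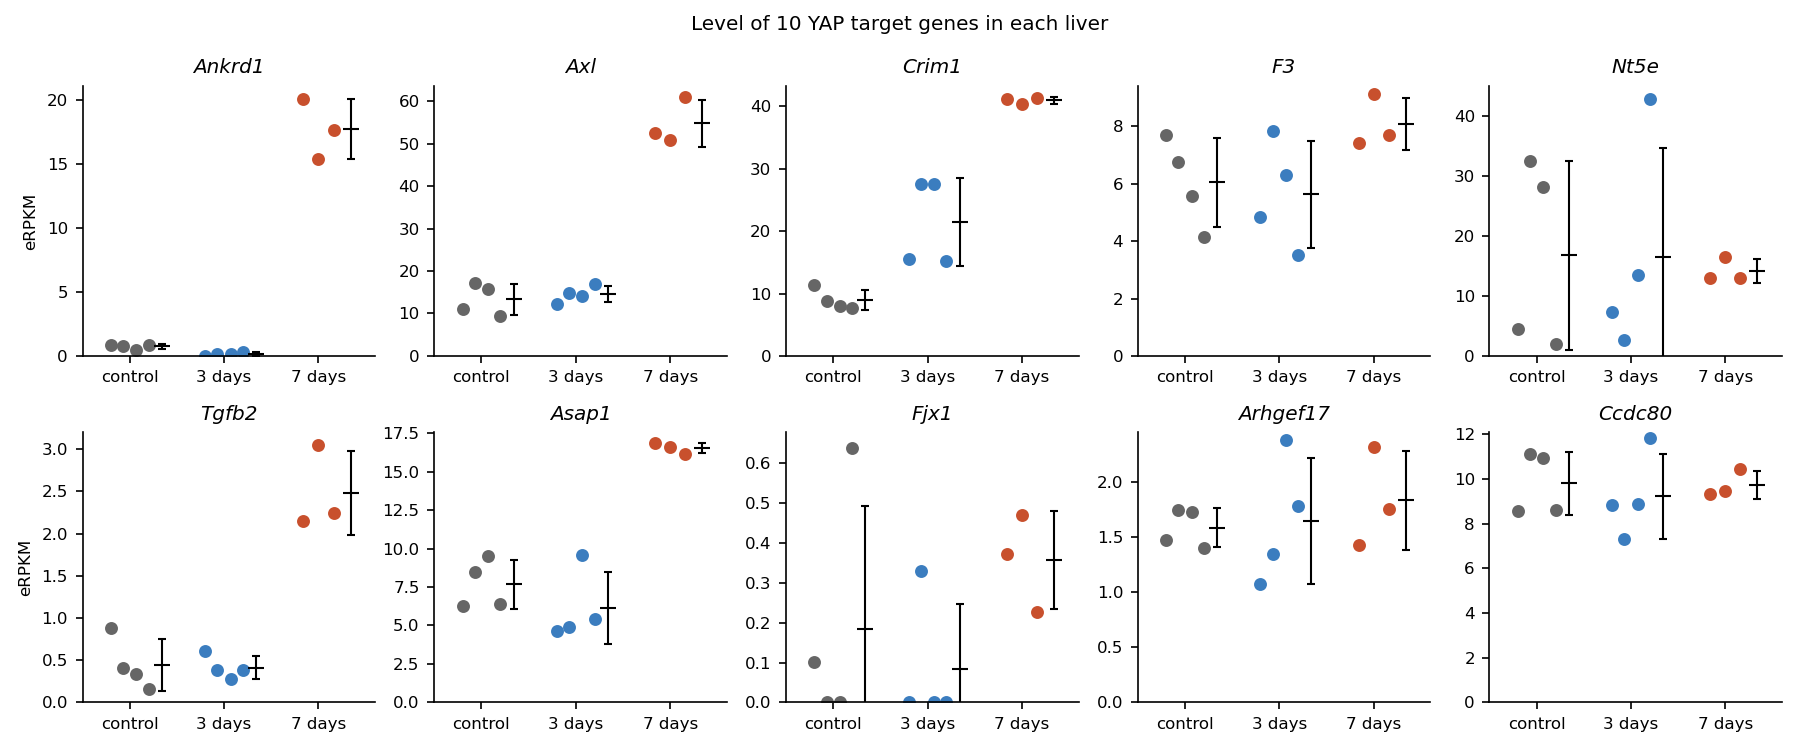
Level of each of the 10 genes in every liver, in eRPKM on a linear axis that starts at 0 and differs between panels, for control, 3-day and 7-day livers. Points are livers, and the bar beside them is the mean with its SD. The 7-day livers lie above all other livers for Ankrd1, Axl, Crim1, Tgfb2 and Asap1, and Crim1 alone has every 3-day liver above every control liver.

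The fold changes below are differences of log2(eRPKM + 0.5), which understate the change of genes with low levels. Over all genes tested the median log2 fold change was 0.02 at 3 days and 0.26 at 7 days. That 7-day shift was 0.07 with log2 depth as a covariate. It also depended on the scaling, being 0.03 with median-ratio size factors and -0.08 after quantile normalization. Differences of that size at 7 days therefore lie within what scaling can move. Some members moved further after quantile normalization, F3 from 0.42 to -0.19 and Ccdc80 from 0.00 to -0.55 at 7 days.

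Promoters were looked at first, since YAP acts through TEAD and AP-1 sites. RefSeq (GRCm38.p6) promoter entries matched 6 of the 10 genes, and each of the 6 sequences was found exactly 1 time in mm9, the build of the deposited table. The 250 bases before the RefSeq start site were searched on both strands for the TEAD core GGAATG and for the AP-1 motif TGANTCA, which do not overlap in letters. Of 32851 promoters of this length, 12.6% held GGAATG and 6.75% held TGANTCA. The sequences of 4 genes that were called at 7 days and of F3, which was not, are shown because they differ in these letters. They run 5′ to 3′ on the strand of the gene, with the motifs in capitals. They lie in mm9 at chr19:36194335-36194584 for Ankrd1, chr7:26573753-26574002 for Axl and chr1:188529869-188530118 for Tgfb2, all on the minus strand. Those of Crim1 at chr17:78599338-78599587 and F3 at chr3:121426205-121426454 are on the plus strand.
Ankrd1: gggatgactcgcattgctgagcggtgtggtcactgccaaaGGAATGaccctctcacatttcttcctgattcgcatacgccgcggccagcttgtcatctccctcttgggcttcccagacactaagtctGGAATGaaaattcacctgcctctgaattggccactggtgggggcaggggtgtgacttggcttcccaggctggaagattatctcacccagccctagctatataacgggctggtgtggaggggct
Axl: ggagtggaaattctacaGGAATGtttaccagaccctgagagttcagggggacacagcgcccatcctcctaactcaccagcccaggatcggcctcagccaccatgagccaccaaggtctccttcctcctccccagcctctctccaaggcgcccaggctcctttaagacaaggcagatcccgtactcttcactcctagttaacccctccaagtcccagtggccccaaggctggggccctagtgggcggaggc
Crim1: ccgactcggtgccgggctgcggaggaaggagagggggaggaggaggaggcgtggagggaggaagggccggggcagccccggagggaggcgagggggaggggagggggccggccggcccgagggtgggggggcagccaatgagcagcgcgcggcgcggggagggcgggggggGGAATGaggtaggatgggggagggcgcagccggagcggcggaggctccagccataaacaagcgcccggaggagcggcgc
Tgfb2: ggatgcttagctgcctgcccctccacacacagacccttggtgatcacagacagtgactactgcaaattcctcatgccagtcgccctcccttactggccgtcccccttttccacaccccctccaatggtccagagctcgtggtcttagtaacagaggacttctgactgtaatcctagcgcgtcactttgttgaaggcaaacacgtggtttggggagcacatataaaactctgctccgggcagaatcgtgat
F3: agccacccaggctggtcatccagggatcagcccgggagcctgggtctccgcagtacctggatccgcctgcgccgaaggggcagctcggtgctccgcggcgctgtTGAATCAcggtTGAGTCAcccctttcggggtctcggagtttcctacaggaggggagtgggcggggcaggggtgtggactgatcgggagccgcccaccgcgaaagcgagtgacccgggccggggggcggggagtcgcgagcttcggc

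Counted back from the start site, Ankrd1 held GGAATG at bases -210 to -205 and again at -123 to -118. Axl held it at -233 to -228 and Crim1 at -79 to -74. F3 held no GGAATG but 2 AP-1 motifs, TGAATCA at -146 to -140 and TGAGTCA at -135 to -129. Neither motif was in these windows of Tgfb2 or Nt5e, although Tgfb2 was among the genes called at 7 days. A match of letters describes the sequence and does not show that a factor was bound there.

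Ankrd1 encodes an ankyrin repeat protein best known from stressed heart muscle, where it sits in the nucleus and in the sarcomere. The gene (ENSMUSG00000024803.8) lies on the minus strand of chromosome 19, from 36186455 to 36194334 in mm9. It changed most of the 10 at 7 days. Its level was 0.85, 0.80, 0.46 and 0.88 eRPKM in control livers 1 to 4, and 0.00, 0.15, 0.15 and 0.30 in the 3-day livers. In the 7-day livers it was 20.1, 15.4 and 17.7. These are counts of 6, 8, 2 and 2 reads in controls, 0, 1, 1 and 2 reads at 3 days and 196, 167 and 171 reads at 7 days. All 7-day livers were far above all others, and all 3-day livers were below all controls. The fitted 7-day change over controls was 3.88 on the log2 scale (SE 0.25, limma adjusted p = 8.78e-07). By an exact two-sided permutation test p was 0.0286, the smallest that 4 against 3 livers allow.

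The 3-day values of Ankrd1 went the other way. The log2 difference from control was -0.94 (SE 0.23) and was not called, with a limma adjusted p of 0.110 (exact permutation p = 0.0286). Complete separation below controls was seen for 2.25% of all genes tested. The difference rests on 18 reads in all control livers together and 4 in all 3-day livers. Controls 1 and 2, which carried the higher background of reads on receptor genes, held 14 of those 18 reads and also 72.0% of all control reads on genes. Without the 4 libraries of highest background the 3-day difference was -0.72 (limma adjusted p = 0.311). Whether background took part in it was not tested. The 7-day change does not rest on those libraries, since it was 4.08 without them (limma adjusted p = 0.000915).

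Ankrd1 has a pair of relatives in the same family of muscle ankyrin repeat proteins. Ankrd23 was called higher at 7 days, from 1.498 to 2.20 eRPKM in controls to 11.5 to 21.7, a log2 fold change of 2.75 (SE 0.27, limma adjusted p = 1.35e-05). Ankrd2 was not called, with a log2 difference of -0.48 (limma adjusted p = 0.197). Of 9 striated muscle markers listed, 2 passed the filter and 0 were called at 7 days. These were Mylpf (log2 difference 1.03, 95% interval -0.24 to 2.30) and Acta1 (-0.77, 95% interval -1.80 to 0.26), whose intervals are wide. The summed level of the 9 was 7.83 to 30.9 eRPKM in controls and 6.83 to 10.5 at 7 days. The genes closest to Ankrd1 in pattern over the 11 livers were Psca (r = 0.987) and Aldh3b1 (r = 0.983). Psca went from a mean of 0.475 eRPKM in controls to 43.7 at 7 days.

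Crim1 encodes a membrane protein with cysteine-rich repeats that binds bone morphogenetic proteins. Its gene is on the plus strand of chromosome 17 (ENSMUSG00000024074.7, 78599588 to 78775932). In eRPKM, the controls stood at 11.3, 8.82, 8.07 and 7.63. After 3 days the livers stood at 15.6, 27.6, 27.5 and 15.2, and after 7 days at 41.3, 40.4 and 41.4. The 3 groups did not overlap, and the 7-day livers were nearly equal. The lower 3-day values were those of livers 1 and 4, whose labels carry the suffix MF. The part of whatever MF marks in this split was not tested. Complete separation above controls was seen at 3 days for 3.38% of all genes tested, and among the members for Crim1 only.

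At 3 days the log2 fold change of Crim1 was 1.17 (SE 0.21), with a limma adjusted p of 0.0430 that missed the threshold of 0.01. At 7 days it was 2.15 (SE 0.23, limma adjusted p = 2.71e-05). The step from 3 to 7 days was 0.97 (SE 0.23, limma adjusted p = 0.00677). On this scale 54.7% of the 7-day change of Crim1 was present at 3 days. The same share was 7.2% for Axl and -0.5% for Tgfb2, and it was -31.4% for Asap1 and -24.3% for Ankrd1. The step from 3 to 7 days lost its call when females alone were compared (0.98, limma adjusted p = 0.0197) and without the 4 libraries of highest background (0.85, limma adjusted p = 0.0790). Leaving out 3-day liver 1 or 4, or any of the 7-day livers, also ended that call, with limma adjusted p between 0.0187 and 0.0288. So did log2 depth (0.82, limma adjusted p = 0.0399) and log2 Xist (1.04, limma adjusted p = 0.0103) as covariates, and in all 13 of 27 alternatives.

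Crim1 shares 123 of its 5995 exon bases with Fez2, a neighbor on the opposite strand, and the reads were aligned without strand information. Control livers had 21.1 to 26.3 eRPKM of Fez2, 3-day livers 25.9 to 43.9 and 7-day livers 46.5 to 53.1. For Fez2 the 7-day log2 change over controls was 1.06 (limma adjusted p = 0.000614), smaller than that of Crim1. The part of shared reads in either value was not tested. The genes nearest to Crim1 in pattern were Xrcc2 (r = 0.987) and Eps8l2 (r = 0.983), both with a 3-day mean between those of the other groups. Eps8l2 averaged 19.7 eRPKM in controls, 37.6 at 3 days and 82.7 at 7 days.

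Axl encodes a receptor tyrosine kinase of the TAM group, which binds the ligand Gas6 and takes part in the clearance of dying cells. In mm9 it sits on the minus strand of chromosome 7 (ENSMUSG00000002602.9, 26542292 to 26573724). Its level was 11.1, 17.1, 15.9 and 9.44 eRPKM in control livers and 12.3, 14.8, 14.1 and 16.8 at 3 days. At 7 days it was 52.4, 50.8 and 61.0, the highest level of any of the 10 genes in any liver. The 3-day livers lay within the range of controls, and every 7-day liver was above both groups. The log2 fold change was 0.15 (95% interval -0.27 to 0.56) at 3 days and 2.03 (SE 0.21, limma adjusted p = 1.70e-05) at 7 days. The step from 3 to 7 days was 1.88 (SE 0.21, limma adjusted p = 3.81e-05).

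Of the other 4 TAM genes looked at, 2 were called higher at 7 days, when 18.0% of all genes tested were, and 0 at 3 days. Gas6, the ligand of Axl, went from 13.1 to 27.1 eRPKM in controls to 73.4 to 87.2 (log2 fold change 1.998, limma adjusted p = 0.000288). Mertk, the TAM receptor of macrophages, went from 11.9 to 27.9 eRPKM to 38.6 to 58.5 (1.24, limma adjusted p = 0.00269). The receptor Tyro3 (-0.20, limma adjusted p = 0.658) and the ligand Pros1 (-0.21, limma adjusted p = 0.375) were not called. The median log2 fold change of the 4 at 7 days was 0.52, beside 0.26 over all genes tested.

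Macrophage markers moved with Axl. Of 8 listed, 7 were in the table, and 6 of those were called higher at 7 days, with Clec4f the exception. The share over all genes tested was 18.0%. Summed over these markers, livers had 792 to 850 eRPKM at 7 days, against 188 to 393 in controls and 220 to 424 at 3 days. The log2 fold changes of these markers at 7 days ran from 0.87 for Clec4f to 3.47 for Marco, with Csf1r at 1.81 (limma adjusted p = 0.000116). The part of macrophages in the Axl, Mertk and Gas6 levels was not tested. The genes most like Axl in pattern were Prkcb (r = 0.995) and Kcnk6 (r = 0.993).

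Tgfb2 encodes a secreted ligand of the TGF-beta family. The gene is located on the minus strand of chromosome 1 (ENSMUSG00000039239.8, 188447065 to 188529871). Levels were low throughout, at 0.88, 0.40, 0.34 and 0.16 eRPKM in controls, 0.61, 0.39, 0.27 and 0.38 at 3 days and 2.15, 3.05 and 2.24 at 7 days. Only 1 control liver and 1 3-day liver reached 0.5 eRPKM, so the gene passed the filter through its 7-day livers and had to differ there. In reads, each control liver held 1 to 17, each 3-day liver 5 to 8 and each 7-day liver 57 to 90. The 7-day livers were above all others, while the 3-day livers lay within the range of controls. The log2 fold change was -0.01 (95% interval -0.58 to 0.56) at 3 days and 1.70 (SE 0.28, limma adjusted p = 0.000542) at 7 days. Control liver 1, which had 17 of the 33 control reads, also carried much of the background on receptor genes. The 7-day call was kept without the 4 libraries of highest background.

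Both other ligands were called higher at 7 days. Tgfb1 went from 2.22 to 4.80 eRPKM in controls to 20.2 to 24.4 (log2 fold change 2.50, limma adjusted p = 4.12e-05). Tgfb3 went from 0.00 to 1.31 eRPKM to 3.13 to 5.72 (2.01, limma adjusted p = 0.00241). Among the receptors, Tgfbr2 was called higher (0.65, limma adjusted p = 0.00500), whereas Tgfbr1 (0.10) and the co-receptor Tgfbr3 (-0.49) were not. This made 3 of 5 TGF-beta genes called higher at 7 days, when 18.0% of all genes tested were, and 0 at 3 days. The macrophage markers described for Axl were also higher at 7 days, and their part was not tested. Of 10 stellate cell and fibroblast markers, 0 were called higher and 1 lower, Reln. Their summed level was 183 to 258 eRPKM in controls and 131 to 161 at 7 days. Pld1 (r = 0.981) and D1Ertd622e (r = 0.978) followed the pattern of Tgfb2 most closely.

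Asap1 encodes a GTPase-activating protein for Arf that acts at focal adhesions and on actin. Its locus is on the minus strand of chromosome 15 (ENSMUSG00000022377.8, 63920103 to 64214481). Control livers had 6.27, 8.48, 9.53 and 6.42 eRPKM and 7-day livers 16.9, 16.6 and 16.2. The 3-day livers had 4.62, 4.89, 9.58 and 5.42, so that 3 of the 4 were below all controls and liver 3 was above all of them. At 7 days all livers were above all controls, with a log2 fold change of 1.08 (SE 0.25, limma adjusted p = 0.00447). Against 3 days the change was 1.42 (SE 0.25, limma adjusted p = 0.000961). At 3 days the difference was -0.34 (SE 0.23, limma adjusted p = 0.580).

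The 7-day call of Asap1 was the least firm of the 5. It was lost with median-ratio size factors (0.82, limma adjusted p = 0.0129) and after quantile normalization (0.65, limma adjusted p = 0.0189). It was also lost in females alone (0.84, limma adjusted p = 0.0329) and without the 4 libraries of highest background (1.03, limma adjusted p = 0.0689). With log2 depth as a covariate it was lost too (0.95, limma adjusted p = 0.0475), the 7-day libraries being among the deepest. Leaving out control liver 1 or 4, or any 7-day liver, ended it as well, with limma adjusted p between 0.0118 and 0.0201. The direction was higher at 7 days under every alternative tried. Zfp628 (r = 0.983) and Coro7 (r = 0.982) were closest to it in pattern.

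**Figure D2:**
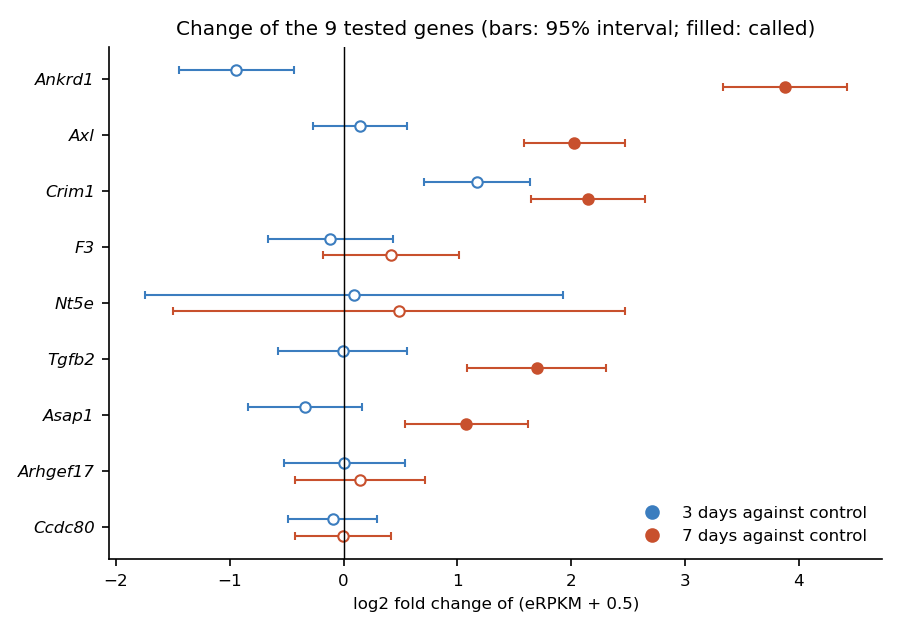
Log2 fold change of eRPKM + 0.5 against control for the 9 genes tested, at 3 days (blue) and at 7 days (red). Bars are 95% intervals from limma, and filled points were called. Filled points occur at 7 days for Ankrd1, Axl, Crim1, Tgfb2 and Asap1, and no 3-day point is filled.

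Nt5e encodes CD73, the surface enzyme that makes adenosine from AMP. It maps to the plus strand of chromosome 9 (ENSMUSG00000032420.6, 88222447 to 88266927). It had the highest mean of the 10 genes in control liver, 16.75 eRPKM, and also the largest SD in eRPKM, 15.7. Its eRPKM in controls 1 to 4 was 4.56, 32.4, 28.1 and 1.94, and in 3-day livers 1 to 4 it was 7.27, 2.67, 13.4 and 42.7. The 7-day livers had 13.0, 16.5 and 13.0. The spread within the control and 3-day groups followed sex. Here the 4 females had 13.4 to 42.7 eRPKM and the 4 males 1.94 to 7.27, without overlap. Complete separation with females higher was seen for 3.67% of all genes tested.

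Over all livers the log2 fold change of Nt5e was 0.09 (95% interval -1.75 to 1.93) at 3 days and 0.49 (95% interval -1.496 to 2.47) at 7 days. Both intervals hold changes of several fold in either direction. Since all 7-day livers were female, the comparison was repeated with females alone. There the 7-day livers were below both female controls, with a log2 difference of -1.07 (limma unadjusted p = 0.0248, adjusted p = 0.0756), which was not called. The direction of the 7-day value thus turned with the choice of livers. The female 3-day livers, at 13.4 and 42.7 eRPKM, lay on either side of the female controls.

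Of 6 adenosine genes around CD73, 3 were called higher at 7 days, when 18.0% of all genes tested were, and 0 at 3 days. Entpd1, or CD39, which makes the AMP that CD73 uses, went from 3.92 to 5.91 eRPKM in controls to 26.6 to 32.5 (log2 fold change 2.47, limma adjusted p = 1.17e-05). Ada, which breaks adenosine down, had a log2 fold change of 1.70 (limma adjusted p = 0.00493). The adenosine receptor Adora3 was called (0.96, limma adjusted p = 0.00962) at levels of at most 0.819 eRPKM, and only its 7-day livers reached 0.5 eRPKM, so that it passed the filter through them. The receptors Adora1 (0.66), Adora2a (0.65) and Adora2b (0.99, limma adjusted p = 0.0182) were not. The part of macrophages, which express Entpd1 and Adora3, was not tested.

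F3 encodes tissue factor, the cell surface receptor that starts coagulation with factor VII. In the genome it is on the plus strand of chromosome 3 (ENSMUSG00000028128.8, 121426455 to 121437970). Control livers had 7.70, 6.77, 5.59 and 4.14 eRPKM, 3-day livers 4.85, 7.84, 6.32 and 3.51, and 7-day livers 7.43, 9.13 and 7.69. Only 7-day liver 2, the library with the most background, was above all controls. The log2 fold change was -0.12 (95% interval -0.67 to 0.44) at 3 days and 0.42 (95% interval -0.18 to 1.01, limma adjusted p = 0.253) at 7 days. After quantile normalization the 7-day value was -0.19. A fold change as large as that of Axl or Crim1 lies outside this interval.

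Of 4 partners of tissue factor, 3 were called lower at 7 days, when 5.77% of all genes tested were. F7, made by hepatocytes, fell from 53.0 to 69.5 eRPKM in controls to 16.7 to 21.4 (log2 fold change -1.70, limma adjusted p = 6.91e-05). F10 had a log2 fold change of -1.14 (limma adjusted p = 0.000157). The inhibitor Tfpi2 fell from 68.8 to 83.9 eRPKM to 17.6 to 19.2 (-2.07, limma adjusted p = 4.53e-05), and the inhibitor Tfpi was not called (0.18). None was called at 3 days. Of 8 hepatocyte markers 2 were called lower at 7 days, Ttr and Tat. The 8 summed to 1499 to 4211 eRPKM in controls and 1134 to 1313 at 7 days. Among controls that sum fell as depth rose, from 4211 in liver 4, the shallowest, to 1499 in liver 2, the deepest. The 7-day libraries were among the deepest. Reads of Alb changed little with depth, lying between 2417 and 3102 in every liver while depth ran from 1251404 to 5942401. Apoa1 likewise lay between 1078 and 1496 reads. The other markers varied more, Hnf4a from 1072 to 3512 reads. The part of depth in the hepatocyte sums, and the part of any hepatocyte change in F7, F10 and Tfpi2, was not tested.

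Ccdc80 encodes a secreted protein of the extracellular matrix. Its position is the plus strand of chromosome 16 (ENSMUSG00000022665.8, 45093515 to 45128037). Control livers had 8.57, 11.1, 10.9 and 8.63 eRPKM, 3-day livers 8.85, 7.33, 8.86 and 11.9, and 7-day livers 9.32, 9.45 and 10.4. Every 7-day liver lay within the range of controls. The log2 fold change was -0.09 (95% interval -0.48 to 0.30) at 3 days and 0.00 (95% interval -0.42 to 0.42) at 7 days, the narrowest intervals of the 9. With quantile normalization the 7-day value was -0.55 (limma adjusted p = 0.0291).

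Arhgef17 encodes a guanine nucleotide exchange factor. The locus is on the minus strand of chromosome 7 (ENSMUSG00000032875.6, 108018260 to 108080675). Control livers had 1.47, 1.75, 1.73 and 1.404 eRPKM, 3-day livers 1.08, 1.35, 2.39 and 1.78, and 7-day livers 1.43, 2.32 and 1.76. The groups overlapped in both comparisons with control. The log2 fold change was 0.01 (95% interval -0.52 to 0.54) at 3 days and 0.15 (95% interval -0.42 to 0.72) at 7 days. Its 7-day direction turned with the scaling, to -0.06 with median-ratio size factors and -0.40 after quantile normalization.

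Among control and 3-day livers, every female also exceeded every male for Arhgef17 and Ccdc80. For Arhgef17 females had 1.73 to 2.39 eRPKM and males 1.08 to 1.47. For Ccdc80 females had 8.87 to 11.9 eRPKM and males 7.33 to 8.85, a narrow gap. The other 7 members overlapped between the sexes.

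**Figure D3:**
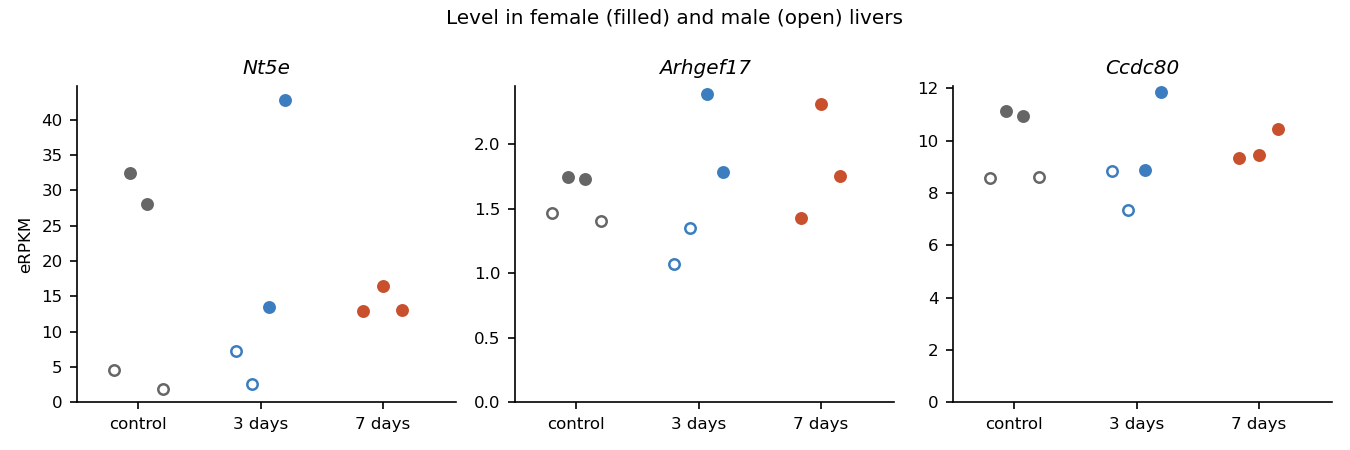
Level of Nt5e, Arhgef17 and Ccdc80 in each liver, in eRPKM on linear axes that start at 0, by group. Filled points are female livers and open points male livers. In the control and 3-day groups every filled point lies above every open point, and all 3 livers at 7 days are female.

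Fjx1 encodes a relative of the fly kinase four-jointed, which phosphorylates the giant cadherins Fat and Dachsous. It is encoded on the minus strand of chromosome 2 (ENSMUSG00000075012.3, 102289525 to 102291949). Control livers had 1, 0, 0 and 2 reads, 3-day livers 0, 3, 0 and 0, and 7-day livers 5, 7 and 3. The highest level, 0.64 eRPKM, came from the 2 reads of control liver 4, the shallowest library. Only that liver reached 0.5 eRPKM, so the gene was not tested. In a fit without the filter the 7-day value was 0.40 (95% interval -0.23 to 1.03, limma adjusted p = 0.372).

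Mouse cadherins of the Fat and Dachsous families were measured better, and whether Fjx1 acts on them was not tested. Fat1 had 13.0 to 20.2 eRPKM in controls and 32.9 to 36.4 at 7 days, all above controls, and narrowly missed the call against control (log2 fold change 1.09, limma adjusted p = 0.0102). Against 3 days Fat1 was called (1.404, limma adjusted p = 0.00300). Dchs1 (0.67, limma adjusted p = 0.0382) and Fat4 (-0.01) were not called.

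**Figure D4:**
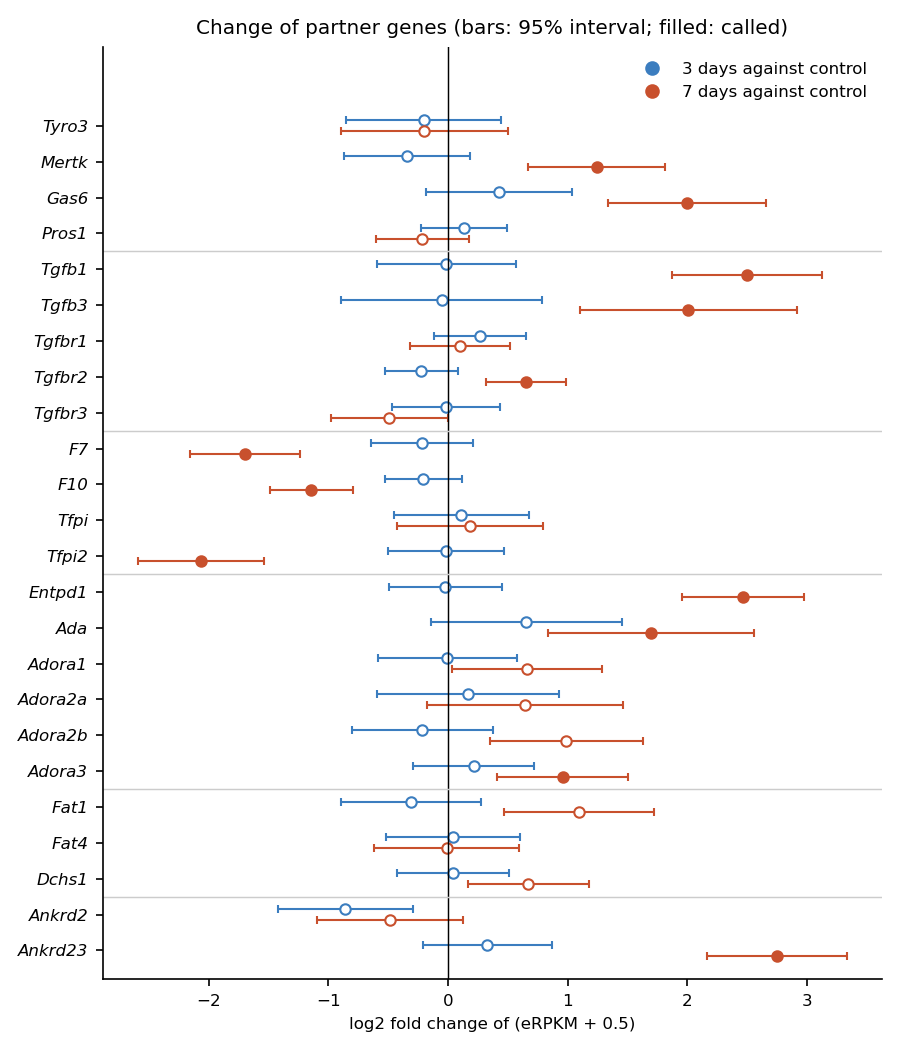
Log2 fold change of eRPKM + 0.5 against control for 24 genes around the members, at 3 days (blue) and 7 days (red), with 95% intervals from limma and filled points for called genes. From top to bottom the blocks hold TAM receptors and ligands, TGF-beta, the tissue factor pathway, adenosine, Fat and Dachsous cadherins and ankyrin repeat relatives of Ankrd1. Called points at 7 days are higher in every block but the tissue factor pathway, where they are lower, and the cadherins, where there are none.

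By level, the order of the members changed between controls and 7 days. The mean level in controls was highest for Nt5e, then 13.4 eRPKM for Axl, 9.82 for Ccdc80, 8.97 for Crim1, 7.68 for Asap1, 6.05 for F3 and 1.59 for Arhgef17. Ankrd1, Tgfb2 and Fjx1 were all below 1 eRPKM. At 7 days Axl led with 54.7 ± 5.48 eRPKM (SD, n = 3), ahead of Crim1 with 41.0 ± 0.549 (SD, n = 3). Ankrd1 (17.75 ± 2.34), Asap1 (16.5 ± 0.3501) and Nt5e (14.2 ± 2.05) followed (SD, n = 3). Values of single livers overlapped between Ankrd1 and Asap1 and between Asap1 and Nt5e. They did not overlap between Axl and Crim1 or between Crim1 and Ankrd1.

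Of the other 12 genes of the target list, 11 were tested. At 7 days 7 were called higher and 2 lower, beside 18.0% and 5.77% of all genes tested. The median log2 fold change was 1.67 over these 11, beside 0.26 over all genes tested. The largest changes were those of Ctgf (3.49), Cyr61 (3.27) and Amotl2 (2.98), the last an angiomotin relative that binds YAP. Igfbp3 (-1.78, limma adjusted p = 0.000759) and Rbms3 (-1.20, limma adjusted p = 0.00765) were called lower. At 3 days 0 of the 11 were called, although every 3-day liver was above every control for Cyr61, Ctgf, Amotl2 and Lats2, as for 3.38% of all genes tested. Crim1 shared this with them at 3 days. Amotl2 had 9.66 to 14.7 eRPKM in controls and 14.9 to 58.7 at 3 days.

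Yap1, its paralog Wwtr1 and the TEAD genes Tead1 to Tead4 were also followed, 6 in all. Of these 3 were called higher at 7 days, when 18.0% of all genes tested were, and 0 at 3 days. Tead4 went from 0.00 to 0.454 eRPKM in controls to 10.3 to 14.5 (log2 fold change 3.98, limma adjusted p = 8.88e-06). No control liver of Tead4 reached 0.5 eRPKM, so it passed the filter through YAP-induced livers and its call is not counted as support. Tead1 (2.25, limma adjusted p = 0.000234) and Wwtr1 (1.13, limma adjusted p = 0.00157) were the others. Tead2 (0.41), Tead3 (0.62) and Yap1 (0.03) were not called.

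Other cell types were followed by their markers in the same livers. Among neutrophil markers 2 of 4 tested were called higher at 7 days, and their sum went from 10.1 to 20.1 eRPKM in controls to 30.4 to 45.5. Endothelial markers had 2 of 8 called higher, Cdh5 and Lyve1, with sums of 132 to 236 in controls and 216 to 251 at 7 days, beside 18.0% of all genes tested called higher. Krt7 was the 1 of 7 cholangiocyte markers tested that was called higher, with sums of 43.6 to 53.4 and 68.6 to 124. No T and B cell or mesothelial marker was called at 7 days. Of 3 platelet and red cell markers in the table, Pf4 was called higher and Hbb-b1 lower. The part of these cells in the levels of the 10 genes was not tested.

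**Figure D5:**
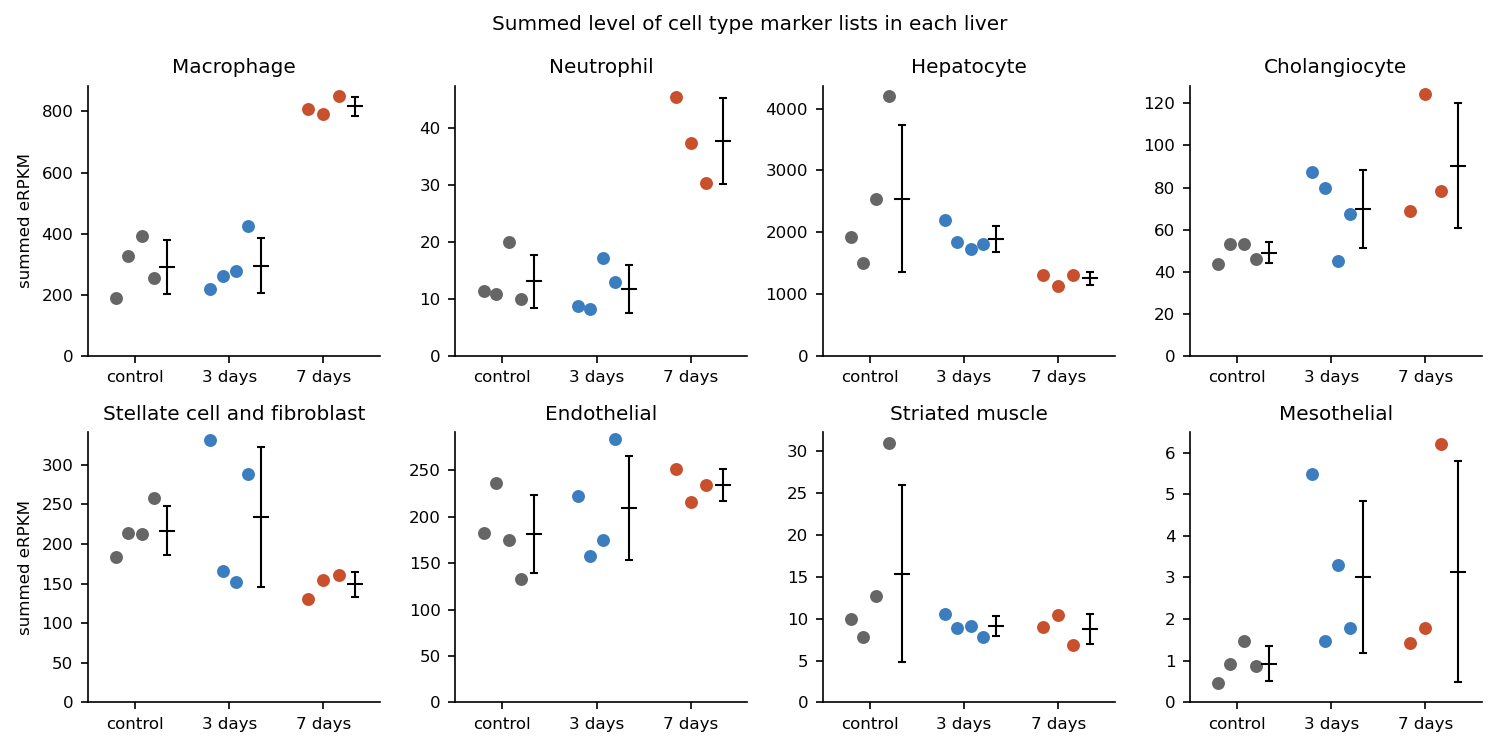
Summed eRPKM of the markers of 8 cell types in each liver, on linear axes that start at 0 and differ between panels. Points are livers, and bars beside them are means with SD. Macrophage and neutrophil sums at 7 days lie above all other livers, and hepatocyte sums lie below all control and 3-day livers. Among controls the hepatocyte sum falls as depth rises. Muscle sums at 7 days lie within or just below the range of controls.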

How the data were processed

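Bulk RNA-seq of 11 livers was analysed, grouped by their labels into 4 controls, 4 livers at 3 days and 3 at 7 days, each from its own mouse. The authors' alignment to mm9 used TopHat2 2.0.8 and ignored strand, and their counting used featureCounts 1.4.5-p1, per the submitters' processing notes and the study's methods. The handling of duplicate reads is not given in the sources used here. The deposited values are eRPKM, a form of RPKM, per gene and liver. The authors also deposited, for their own test of 7 days against control, a mean signal per gene, a log2 ratio and a p-value after adjustment, none of which was used.

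Values of a gene were whole multiples of 1 read, and 100% of 177553 values above 0 came within 0.1 of a whole number of reads. These reads gave the depth, from 1251404 to 5942401 per liver, and served 1 alternative fit.

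Genes that reached 0.5 eRPKM in 3 or more livers were fitted on log2(eRPKM + 0.5) with limma 3.58.1 in R 4.3.3, using a mean-variance trend. The 3 groups shared 1 fit and 1 estimate of the spread, since each held only 3 or 4 livers. A log scale was used in place of a count test because eRPKM is a normalized unit. P-values were adjusted by Benjamini-Hochberg over all 14244 genes. The procedure was tested on simulated data. Exact permutation tests were two-sided. The named genes were the 10 members, the rest of the published target list, and Yap1, Wwtr1 and the TEAD genes. Partners of the members were also followed, those called or direct partners being named. For each member the 2 genes of highest Pearson correlation over 11 livers were added. Members, lists and marker sets were chosen with earlier results of these data known. Gene positions come from the GENCODE annotation of mm9, and promoters from RefSeq. Alternatives changed the pseudocount, filter, scaling, trend, covariates, threshold and set of livers.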

Additional observations from a re-analysis of the deposited data

Results flagged for a closer look

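Among 22 sets of 4 values, namely the levels of 10 genes and the depth in the control and 3-day groups, 4 had a liver whose gap to the nearest other, as a share of the whole range, exceeded Dixon's 95% critical value. About 1 in 20 such sets would do so by chance. Fjx1 in control liver 4 had a gap of 0.84 of the range, from 2 reads. Fjx1 in 3-day liver 2 had a gap of 1.0, since the other 3 livers were at 0. Asap1 in 3-day liver 3 had a gap of 0.838, at 9.58 eRPKM. Depth in 3-day liver 1 had a gap of 0.946, at 2660250 reads on genes.

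The change at 7 days differed from that at 3 days for 5 members, by the limma contrast between these groups. Tgfb2, which passed the filter only through its 7-day livers, is listed but not counted as support. The log2 difference was 4.82 for Ankrd1, 1.88 for Axl, 1.71 for Tgfb2, 1.42 for Asap1 and 0.97 for Crim1. All 3 livers at 7 days were above all 4 at 3 days for each of them.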

How the results depend on the processing

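Over 27 alternatives per comparison, 4 or 5 members were called at 7 days against control. At 3 days 1 member, Crim1, was called when adjusted p below 0.05 alone was required, and 0 in the other 26. At 7 days against 3 days 3 members were called in female livers only, and 3 without the 4 libraries of highest background, an alternative chosen after seeing the data. Those 3 were Ankrd1, Axl and Tgfb2 both times. The calls of Tgfb2 are not counted as support here either, since it passed the filter only through its 7-day livers. Of 726 member values under alternatives, 637 kept direction and call, 25 lost the call, 1 gained it and 63 changed sign, none of these 63 being a called value. The lost calls were all of Asap1 (10 at 7 days and 2 at 7 against 3 days) and Crim1 (13 at 7 against 3 days).

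The values of changed sign were log2 differences near 0 or with wide intervals. In female livers only they were -0.092 for Axl and -0.32 for Nt5e at 3 days, -1.07 for Nt5e at 7 days, and -0.75 for Nt5e, -0.15 for Arhgef17 and -0.073 for Ccdc80 at 7 against 3 days. With log2 Xist as a covariate they were -0.56 for Nt5e and -0.0083 for Arhgef17 at 7 days, and -0.73 for Nt5e, -0.028 for Arhgef17 and -0.054 for Ccdc80 at 7 against 3 days. With log2 depth as a covariate they were -0.24 for Nt5e and -0.033 for Arhgef17 at 3 days, -0.76 for Nt5e and -0.0053 for Arhgef17 at 7 days, and -0.52 for Nt5e at 7 against 3 days. After quantile normalization they were -0.0049 for Nt5e and 0.12 for Tgfb2 at 3 days, -0.19 for F3 and -0.40 for Arhgef17 at 7 days, and -0.063 for F3, -0.43 for Arhgef17 and -0.40 for Ccdc80 at 7 against 3 days. With median-ratio size factors they were 0.0011 for Tgfb2 and -0.013 for Arhgef17 at 3 days, -0.061 for Arhgef17 at 7 days, and -0.048 for Arhgef17 and -0.14 for Ccdc80 at 7 against 3 days. A pseudocount of 0.1 gave 0.039 for Tgfb2 and 0.00 for Arhgef17 at 3 days. A covariate for the suffix MF in the labels, whose meaning is not stated, gave 0.045 for F3 and -0.42 for Nt5e at 3 days. With limma-voom, Nt5e was at -0.14 and Arhgef17 at -0.0048 at 3 days. Without the 4 libraries of highest background F3 was at 0.20 and Tgfb2 at 0.19 at 3 days, Ccdc80 at 0.02 at 7 days and Arhgef17 at -0.14 at 7 against 3 days.

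Leaving out each liver in turn gave, at 3 days, -0.0023 to 0.27 for Axl, -0.28 to 0.072 for F3, -0.61 to 0.69 for Nt5e, -0.16 to 0.19 for Tgfb2, -0.15 to 0.14 for Arhgef17 and -0.22 to 0.0033 for Ccdc80. At 7 days it gave -0.21 to 1.04 for Nt5e and -0.061 to 0.058 for Ccdc80. At 7 against 3 days it gave -0.20 to 1.06 for Nt5e, -0.0032 to 0.29 for Arhgef17 and -0.0058 to 0.21 for Ccdc80. The cause of these changes was not tested. Over the 27 alternatives, genes called in either direction ranged from 0 to 54 at 3 days (6 as reported), 1395 to 5390 at 7 days (3383) and 674 to 5085 at 7 against 3 days (2753).

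Same-numbered livers of different groups deviated together in 2 of 10 pairs (correlation over 0.1, range -0.222 to 0.269). Those were pairs of the same sex, control and 3-day liver 1 (0.197) and control and 3-day liver 3 (0.269). Whether the replicate numbers pair the livers therefore cannot be told from these correlations. With the replicate number as a block Ccdc80 at 7 days was at 0.031, the step of Crim1 from 3 to 7 days lost its call (0.87, limma adjusted p = 0.0203), and 2720 genes were called at 7 days in place of 3383. Depth limits Fjx1, Ankrd1 and Tgfb2, which had at most 17 reads in any control or 3-day liver.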
